A study of Mus musculus with 35 samples.

Results

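The transcripts described here encode 7 subunits of the GABA-A receptor, the chloride channel that carries fast inhibition in the hippocampus. The members, Gabra2, Gabra3, Gabra4, Gabra5, Gabrb1, Gabrb2 and Gabrd, were taken by gene symbol from the 32544 genes counted in each library, and all 7 passed the filter on low counts in every comparison. Hippocampal RNA came from young adult male C57BL/6JOlaHsd mice killed 24 hours or 2 weeks after an injection into the amygdala of either PBS or kainic acid (IAKA), which triggers status epilepticus. The injections were made through a cannula implanted beforehand. The methods give lorazepam, a benzodiazepine that acts on GABA-A receptors, after kainic acid and do not state it for PBS, so kainic acid, the seizures and lorazepam cannot be told apart in the IAKA groups. By 2 weeks mice of this model have spontaneous seizures. No genetic change was labelled, and each library was labelled as coming from 1 mouse. RNA pulled down with an antibody against m6A, the most common internal modification of mRNA, was sequenced in 5 IAKA and 3 PBS mice at 24 hours and in 6 IAKA and 5 PBS mice at 2 weeks. Total RNA that had not been pulled down (input) was sequenced in 16 of the 35 libraries, and 13 of these had 100000 or more counts. Of these 13, the 24-hour inputs were 3 from IAKA and 1 from PBS, and the 2-week inputs 6 from IAKA and 3 from PBS. The questions were whether the level of each subunit transcript in the input, its level in the m6A libraries, or the ratio of both within a mouse differed between IAKA and PBS.

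GABA-A receptors are assembled from alpha, beta and gamma or delta subunits, and the alpha subunit sets much of where a receptor sits and which drugs it binds. Receptors with alpha-2 or alpha-3 are mainly synaptic, alpha-5 receptors are abundant outside synapses of pyramidal cells, and alpha-4 pairs with delta in receptors outside synapses of dentate granule cells that carry tonic inhibition. Beta subunits are needed for assembly and form part of the GABA binding site. Changes of these subunits after status epilepticus have long been studied in rodent hippocampus.

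On the mm10 build, 3 of the members lie in a cluster on chromosome 5. These are Gabra2 (chr5:70958392-71095849, minus strand), Gabra4 (chr5:71569734-71658308, minus strand) and Gabrb1 (chr5:71657921-72149572, plus strand). Gabra4 and Gabrb1 overlap at their starts on opposite strands, and the sources do not say whether counting used the strand, so reads from that stretch cannot be told apart. Gabra5 lies at chr7:57407669-57591016 (minus strand), Gabrb2 at chr11:42419515-42632591 (plus strand), Gabra3 at chrX:72432676-72656919 (minus strand) and Gabrd at chr4:155384979-155398098.

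The methyltransferase that writes m6A on mRNA favours a short motif of which GGACT is a common form, written here as DNA. It was searched on the sense strand of 1 canonical GENCODE transcript per gene, read from the GRCm39 genome, which is a different build from that of the counts. The members held 39 matches, with 19 in coding sequence, 19 in the 3′ UTR and 1 in the 5′ UTR. By gene there were 10 in Gabrb1, 8 each in Gabra2, Gabra3 and Gabrb2, 4 in Gabra5, 1 in Gabrd and 0 in Gabra4. Over 21512 protein-coding transcripts, 89.1% held at least 1 match and the median was 1.01 per kb, against 2.18 per kb in Gabra3 and 0.517 per kb in Gabrd. A match shows only that these letters are present, since the libraries hold gene counts and no position of m6A along a transcript.

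The matches shown first are those that 3 alpha subunit genes share at corresponding places of their coding sequence, with GGACT in capitals and 10 bases on each side. In Gabra2 the matches lie 413 and 987 bases upstream of the stop codon, in Gabra3 461 and 1035 bases and in Gabra5 428 and 1002 bases. The positions are chr5:71130874-71130898 and chr5:71171856-71171880 for Gabra2, chrX:71488896-71488920 and chrX:71544782-71544806 for Gabra3, and chr7:57063449-57063473 and chr7:57138647-57138671 for Gabra5, all on the minus strand of GRCm39.
Gabra2, nearer the stop: ccactgccatGGACTggtttatagc
Gabra3, nearer the stop: cgacggccatGGACTggttcatagc
Gabra5, nearer the stop: ccacagccatGGACTggttcattgc
Gabra2, farther from the stop: agcaaaatctGGACTcctgatacct
Gabra3, farther from the stop: agtaagatatGGACTcctgatacct
Gabra5, farther from the stop: agcaaaatctGGACTccagacacgt

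The region around the stop codon is where m6A is most often found in mRNA. A match within 200 bases of the stop codon was present in 39.0% of the 17811 transcripts that reach that far on both sides, and among the members in Gabrb2 alone, which held 2, both in the 3′ UTR (chr11:42517733-42517757 and chr11:42517773-42517797, plus strand of GRCm39). The single match in Gabrd lay in its coding sequence (chr4:155473471-155473495, minus strand).
Gabrb2, first after the stop: tgagaagcaaGGACTggattcctct
Gabrb2, second after the stop: gcctgatgtaGGACTtggaaaacac
Gabrd, coding: atgacattggGGACTacgtgggctc

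The 19 m6A libraries held 1652933 to 34564536 counts, and the 13 deeper input libraries 3057578 to 12694434. The other 3 inputs, all from 24 hours (IAKA mouse 97, PBS mice 71 and 73), held 3171 to 34486 counts and were used only as an alternative. The assay was named in the data columns of 8 libraries and inferred for the other 27 from how those columns were named. m6A libraries fell into library sets 3, 4 and 5 by the prefix of their column names, and set 3 held only IAKA mice. What a set stands for was not stated, so where a set held 1 treatment it cannot be told apart from the treatment. The m6A libraries of IAKA mice 67 and 98 at 24 hours held under 2000000 counts. The hippocampal markers were present, with 10 dentate granule cell markers summing to 317 to 632 counts per 1000000 library counts (CPM) over the 13 inputs of the groups compared and 10 thalamus markers to 112 to 199.8 CPM, while 10 choroid plexus markers ranged from 88.9 to 1662 CPM. Both libraries of IAKA mouse 8 at 24 hours stood apart: the summed level of 10 excitatory neuron markers was 2645 CPM in its input and 2393 CPM in its m6A library, against 3971 to 6757 CPM in the other 12 inputs and 4620 to 8670 CPM in the other 18 m6A libraries.

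In the inputs of the 4 PBS mice, per kb of the canonical transcript, Gabra2 had the highest level and Gabrd the lowest. Gabra2 stood at a median of 35.7 CPM per kb (range 33.3 to 52.2) and Gabra5 at 25.1 (23.8 to 38.5), and their ranges overlapped. Gabra4 (median 21.4, range 17.8 to 23.5), Gabra3 (19.7, 18.2 to 22.5), Gabrb2 (17.6, 16.5 to 22.0) and Gabrb1 (17.3, 13.5 to 19.6) followed, and neighbours in this order overlapped, while Gabra5 and Gabra4 did not. Gabrd stood at a median of 3.38 CPM per kb (1.03 to 4.13), below all others in each of the 4 libraries. In the 9 IAKA inputs, Gabra2 was again the highest (median 30.7, range 26.1 to 56.3 CPM per kb) and Gabrd the lowest (2.52, 0.806 to 3.57), and Gabra3 stood sixth (12.5, 8.60 to 17.7). These levels rest on the length of 1 transcript per gene.

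At 24 hours the input libraries held less of 6 of the 7 subunit transcripts in each of the 3 IAKA mice than in the single PBS mouse, and Gabra5 and Gabra4 differed most. Over all genes, 30.8% were also lower in all 3 IAKA inputs than in that 1 PBS library, so this count by itself says little about the subunits. That library held 1072 CPM summed over the 7 members, the highest of the 13 inputs. The 3 PBS inputs from 2 weeks held 786 to 864 CPM. No member passed an adjusted p of 0.05 in edgeR with all 4 libraries, and 0% of 18918 genes did. At an unadjusted p under 0.05 stood 1 member, Gabra5, and 2.28% of genes. The median log2 fold change of all genes was 0.30 with TMM scaling and 0.01 by library size alone. With TMM scaling it was 0.21 for genes with a mean count of at least 10, 0.49 with no filter and 0.01 without IAKA mouse 8. How far a member lies below the other genes therefore depends on the scaling, the filter and that library.

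Gabra5, the subunit of receptors outside synapses of pyramidal cells, stood at 131 CPM in the PBS mouse and at 54.0, 41.0 and 45.7 CPM in IAKA mice 67, 98 and 8. The IAKA levels were also below the 80.8 to 85.3 CPM of the 3 PBS inputs from 2 weeks. The PBS mouse at 24 hours was above these 3 inputs. The log2 fold change was -1.19 ± 0.33 (SE, edgeR, n = 3 and 1), with an adjusted p of 0.99.

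Gabra4 stood at 98.5 CPM in the PBS mouse and at 41.1, 48.4 and 48.2 CPM in the IAKA mice. All 3 lay below each of the other 10 deeper inputs, PBS or IAKA, the lowest of which held 64.6 CPM. The log2 fold change was -0.81 ± 0.33 (edgeR, adjusted p = 0.99).

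Gabra2 stood at 329.8 CPM in the PBS mouse and at 165, 179.7 and 225 CPM in the IAKA mice, a log2 fold change of -0.50 ± 0.44 (edgeR, adjusted p = 0.99). The PBS inputs from 2 weeks held 211 to 232 CPM of Gabra2, so the PBS mouse at 24 hours was above them and the IAKA range overlapped them. Gabrb2 stood at 168 CPM in the PBS mouse and at 95.8, 90.6 and 58.2 CPM in the IAKA mice (log2 fold change -0.78 ± 0.37, edgeR adjusted p = 0.99). Here the IAKA levels were below those of all 4 PBS inputs. The PBS inputs from 2 weeks held 126 to 136 CPM, also below the PBS mouse at 24 hours.

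Gabrb1 stood at 269 CPM in the PBS mouse and at 227, 237 and 116 CPM in the IAKA mice, and Gabra3 at 69.4 against 36.9, 65.0 and 36.7 CPM. Gabrd overlapped between groups, with 6.62 CPM (84 counts) in the PBS mouse and 2.91, 6.91 and 3.93 CPM in the IAKA mice. Their log2 fold changes were -0.22 ± 0.49, -0.32 ± 0.43 and -0.26 ± 0.64.

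Whether members passed at 24 hours depended on IAKA mouse 8. Without it, or within the inputs whose columns carry no prefix, which are the same 3 libraries (IAKA mice 67 and 98, PBS mouse 1), 4 of the 7 members were lower at an adjusted p of 0.05 in edgeR, as were 5.83% of 14733 genes (13% in either direction), and no member was higher. Gabra5 changed by -1.25 ± 0.19 on the log2 scale (adjusted p = 0.0080), Gabra4 by -0.94 ± 0.17 (0.014), Gabra2 by -0.74 ± 0.16 (0.026) and Gabrb2 by -0.65 ± 0.15 (0.031). The others held log2 values of -0.02 ± 0.16 (Gabrb1), -0.26 ± 0.32 (Gabra3) and -0.29 ± 0.47 (Gabrd). This fit has 1 PBS library, whose spread is assumed to be that of the 2 IAKA libraries. That PBS library held the highest summed level of the members among the 13 inputs. With limma voom and sample quality weights on all 4 libraries, Gabra5 alone passed (-1.25, adjusted p = 0.027), as did 3.15% of genes, with 1.33% lower, and with DESeq2 no member did.

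**Figure D1:**
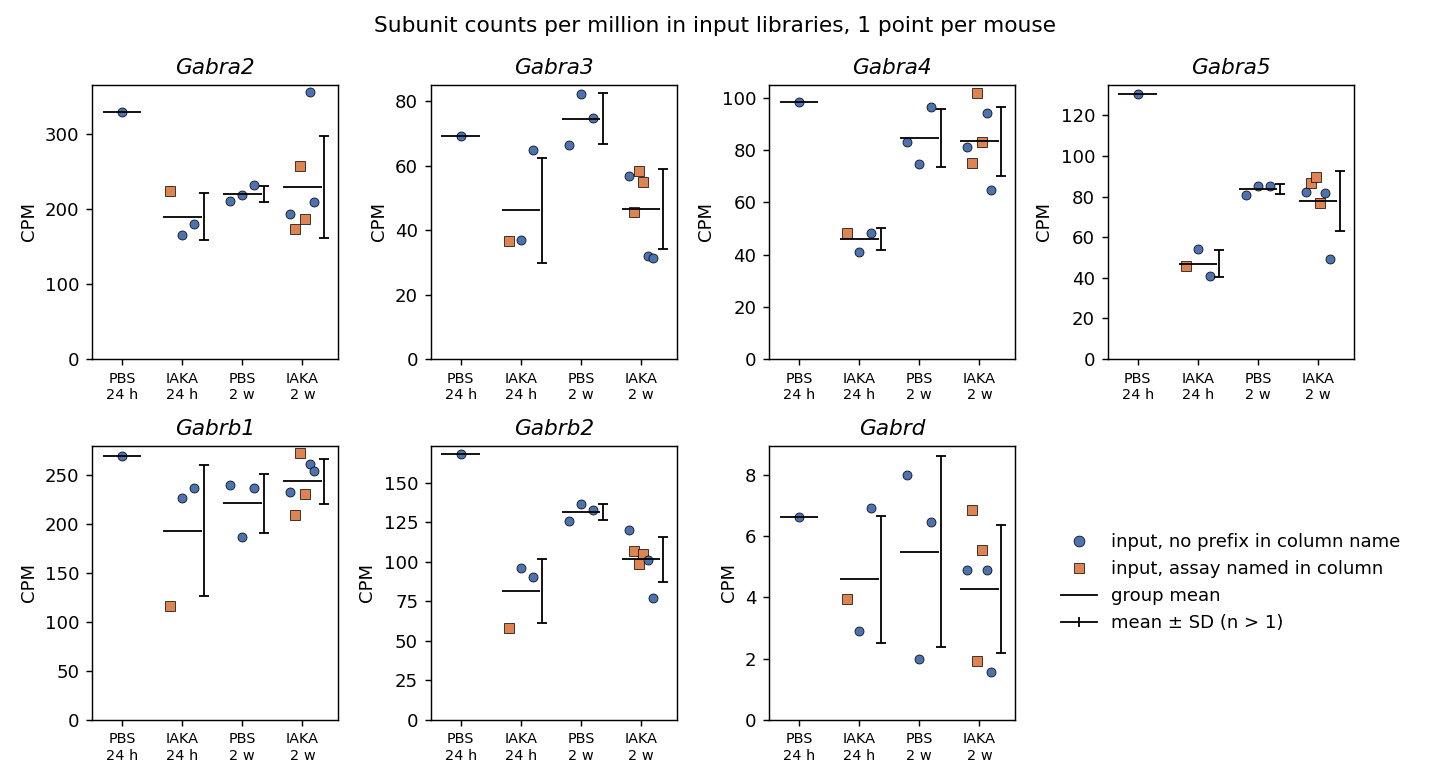
CPM of each subunit transcript in the 13 input libraries of 100000 or more counts, by group (24 h and 2 w, PBS and IAKA); points are mice, marked by how the column is named, black lines are group means and bars the SD where a group has more than 1 mouse. The IAKA mice at 24 hours held 41.1 to 48.4 CPM of Gabra4, below all other inputs, and the PBS group at 24 hours is 1 mouse.

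Markers of cell types moved in the same libraries. Without mouse 8, 6 of 10 astrocyte markers and 6 of 10 microglia markers were higher in IAKA inputs at 24 hours (edgeR, adjusted p under 0.05), and 3 of 10 dentate granule cell markers and 2 of 10 interneuron markers were lower, with 1 granule cell marker higher. Of 10 excitatory neuron markers 0 passed, with a median log2 fold change of 0.21, and of 10 CA1 and CA3 markers 1 was lower, with a median of 0.32. Of 10 oligodendrocyte markers 1 was higher and 1 lower, with a median of -0.35. The summed level of the granule cell markers was 632 CPM in the PBS mouse and 317 to 471 CPM in the 3 IAKA mice, that of the interneuron markers 825 against 493 to 534 CPM, and that of the microglia markers 144 against 102 to 231 CPM. The sums of the excitatory neuron markers (6757 CPM in the PBS mouse, 2646 to 6180 CPM in the IAKA mice), the CA1 and CA3 markers (703 against 296 to 563 CPM) and the oligodendrocyte markers (2836 against 885 to 2162 CPM) were also lower in all 3 IAKA mice. Astrocyte markers summed to 2528 CPM in the PBS mouse and to 971 to 4800 CPM in the IAKA mice, with mouse 8 the lowest. The PBS mouse had the highest sum of the 13 inputs for the granule cell, interneuron, excitatory neuron, and CA1 and CA3 markers. In the PBS inputs from 2 weeks the interneuron markers (516 to 556 CPM), excitatory neuron markers, and CA1 and CA3 markers overlapped the IAKA range. Their granule cell markers (504 to 531 CPM) and oligodendrocyte markers stood above it. The part of these markers in the subunit levels was not tested. In whole hippocampus fewer cells of a type and less RNA per cell cannot be told apart, nor can either be told from the level of 1 PBS mouse.

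In the m6A libraries at 24 hours, Gabra5 was again the member with the largest difference, and again it did not pass the test. The PBS mice held 154, 148 and 110.2 CPM of Gabra5, and the IAKA mice held 95.0, 52.6, 58.9, 102 and 92.0 CPM (mice 67, 98, 8, 79 and 97). Every IAKA mouse was below every PBS mouse, which was the case for 1 of the 7 members and for 1.09% of 16470 genes, while no member and 2.62% of genes had every IAKA mouse higher. The log2 fold change was -0.81 ± 0.25 (edgeR, n = 5 and 3, adjusted p = 0.58, unadjusted p = 0.0090). No member passed, and 0.00607% of genes did. At an unadjusted p under 0.05 stood Gabra5 alone among the members, and 5.31% of genes. With voom and quality weights Gabra5 passed (-0.73, adjusted p = 0.018), as did 6.8% of genes, with 2.18% lower, and with DESeq2 no member did (Gabra5 adjusted p = 0.12).

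Gabra4, the alpha subunit that pairs with delta, stood at 124, 85.6 and 58.2 CPM in the PBS mice and at 48.4 to 62.7 CPM in the 5 IAKA mice. The IAKA mice lay close together, and the lowest PBS mouse fell among them (log2 fold change -0.63 ± 0.30, edgeR adjusted p = 0.98). Gabra2 ranged from 263 to 408 CPM in PBS and from 155 to 312 CPM in IAKA mice (-0.45 ± 0.34), Gabrb2 from 102 to 156 and from 68.9 to 117 CPM (-0.33 ± 0.24), and Gabrb1 from 144 to 258 and from 81.5 to 233 CPM (-0.26 ± 0.30). In the same libraries the granule cell markers summed to 511 to 603 CPM in PBS and 261 to 558 CPM in IAKA mice. Over all 8 libraries 0 markers of any cell type passed, and the list medians on the log2 scale stood beside 0.08 for all genes. They were -0.62 for granule cell markers, -0.29 for excitatory neuron markers, with 9 of 10 below 0, -0.35 for CA1 and CA3 markers and -0.39 for oligodendrocyte markers. The median was 0.56 for thalamus markers, with 10 of 10 above 0, and 1.03 for choroid plexus markers. Their part in the subunit levels was not tested.

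Set 4 was the only set with both treatments at 24 hours (IAKA mice 79 and 97, PBS mice 71 and 73). Within it the log2 fold changes were -0.53 ± 0.15 for Gabra5 (edgeR, adjusted p = 0.13), -0.41 ± 0.17 for Gabra4 and -0.07 ± 0.14 for Gabra2. Gabra3 was 0.06 ± 0.47 over all 8 libraries and -0.53 ± 0.16 within set 4 (adjusted p = 0.13). There it stood at 28.0 and 28.1 CPM in PBS mice and at 21.5 and 20.7 CPM in IAKA mice.

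Gabrd was 0.20 ± 0.64 over all libraries and -0.64 ± 0.31 within set 4 (edgeR, adjusted p = 0.32). The value over all libraries rested on IAKA mouse 98, which held 12.7 CPM against 2.08 to 2.75 CPM in the other 4 IAKA mice and 3.22 to 4.28 CPM in the PBS mice. Without that mouse it was -0.57. The fit within set 4 also leaves out PBS mouse 1, IAKA mouse 8 and both m6A libraries under 2000000 counts, those of IAKA mice 67 and 98. Without these shallow libraries alone, Gabra3 stood at -0.42 ± 0.48 and Gabrd at -0.53 ± 0.41, so that set and depth cannot be told apart here. Within set 4, 3 of 10 astrocyte markers were higher and 1 lower, 1 of 10 interneuron markers was higher, and 1 of 10 excitatory neuron markers was lower. Of 16903 genes in that fit, 248 were higher and 108 lower (edgeR, adjusted p under 0.05). The part of these markers was not tested.

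**Figure D2:**
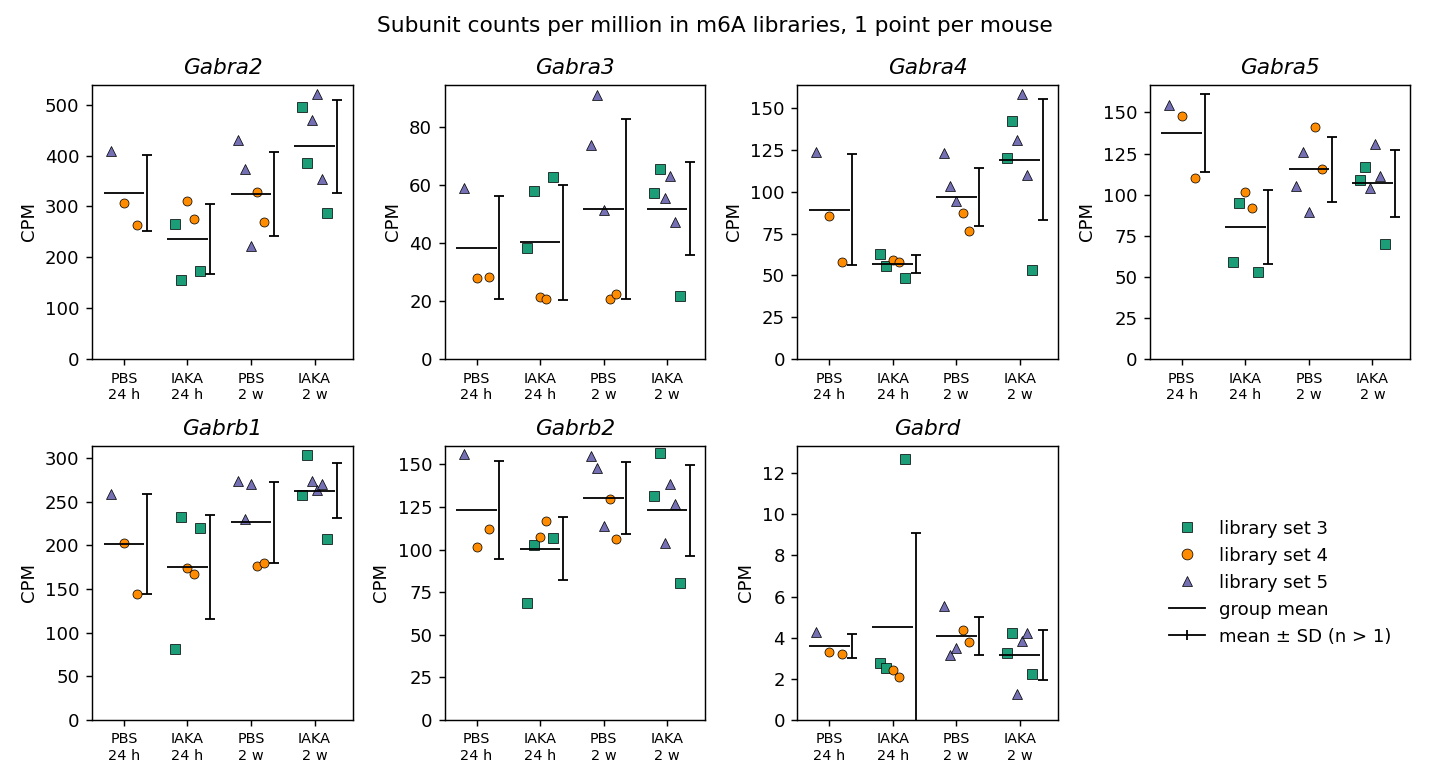
CPM of each subunit transcript in the 19 m6A libraries, by group (24 h and 2 w, PBS and IAKA); points are mice, marked by library set, black lines are group means and bars the SD (cut at 0 for Gabrd). All IAKA mice at 24 hours lie below all PBS mice for Gabra5, and set 4 mice lie between 20.7 and 28.1 CPM for Gabra3 in every group they belong to.

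At 2 weeks the inputs held less Gabra3 and Gabrb2 in all 6 IAKA than in all 3 PBS mice, while the other 5 members overlapped. Of 13752 genes, 3.8% were likewise lower in every IAKA mouse, and 2.64% (and 0 members) were higher in every one. Gabra3, a synaptic alpha subunit, held 66.6, 82.4 and 74.8 CPM in PBS mice and 31.5 to 58.5 CPM (median 50.3) in IAKA mice. Its log2 fold change was -0.66 ± 0.20 (edgeR, n = 6 and 3), with an adjusted p of 0.27 and an unadjusted p of 0.0055. Within the inputs with no prefix (3 IAKA and 3 PBS mice) it was -0.86 ± 0.24 (adjusted p = 0.19).

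Gabrb2 held 126, 136 and 132 CPM in PBS mice and 76.8 to 120.4 CPM (median 103) in IAKA mice. The PBS mice lay close together and the IAKA mice just below them (log2 fold change -0.35 ± 0.14, edgeR adjusted p = 0.32, unadjusted p = 0.028). No member passed at 2 weeks in edgeR, DESeq2 or voom, and 0% of genes passed in edgeR. At an unadjusted p under 0.05 stood 2 of the 7 members and 14.1% of genes. In these inputs the median log2 fold change was 0.65 over the astrocyte markers and 0.89 over the microglia markers, with none past the threshold, and granule cell markers summed to 504 to 531 CPM in PBS and 397 to 611 CPM in IAKA mice. The part of these in the subunit levels was not tested.

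Gabra5 and Gabra4, the members with the largest 24-hour differences, overlapped between groups at 2 weeks. Gabra5 held 80.8 to 85.3 CPM in the PBS inputs and 49.3 to 89.6 CPM (median 82.0) in the IAKA inputs (log2 fold change -0.08 ± 0.16), and Gabra4 74.7 to 96.5 against 64.6 to 102 CPM (median 82.3, log2 fold change 0.00 ± 0.14). IAKA mouse 42 was the lowest input of its group for Gabra3, Gabra4, Gabra5, Gabrb2 and Gabrd. In the m6A libraries it was the lowest of its group for all members but Gabrd. The same mouse was the highest of its group in the summed level of astrocyte markers, at 7863 CPM in the input and 7843 CPM in the m6A library, and of microglia markers, at 447 and 649 CPM, and their part was not tested. Gabra2 (0.07 ± 0.19), Gabrb1 (0.17 ± 0.12) and Gabrd (-0.30 ± 0.46) completed the inputs on the log2 scale.

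In the m6A libraries at 2 weeks the groups overlapped for all 7 members, where 0.26% of genes were higher and 0.334% lower without overlap. Gabra2 held 223 to 431 CPM (median 329) in 5 PBS mice and 287 to 521 CPM (median 427) in 6 IAKA mice, a log2 fold change of 0.44 ± 0.22 (edgeR, adjusted p = 0.87). Gabra4 followed with 76.5 to 123 CPM (median 94.5) and 53.5 to 158 CPM (median 126) and a log2 fold change of 0.39 ± 0.26 (edgeR, adjusted p = 0.87). Gabra5 held 89.2 to 141 CPM in PBS and 69.8 to 131 CPM in IAKA mice (-0.02 ± 0.20).

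The other members gave log2 values of 0.30 ± 0.20 (Gabrb1), 0.09 ± 0.40 (Gabra3), 0.01 ± 0.22 (Gabrb2) and -0.26 ± 0.34 (Gabrd). No member and 0% of 16157 genes passed in edgeR, and at an unadjusted p under 0.05 stood 0 members and 5.01% of genes. DESeq2 and voom called 0 members. Within set 5, with 3 mice of each treatment, Gabra2 stood at 0.46 ± 0.27, Gabra4 at 0.39 ± 0.22 and Gabra3 at -0.30 ± 0.25, the last against 0.09 over all libraries.

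**Figure D3:**
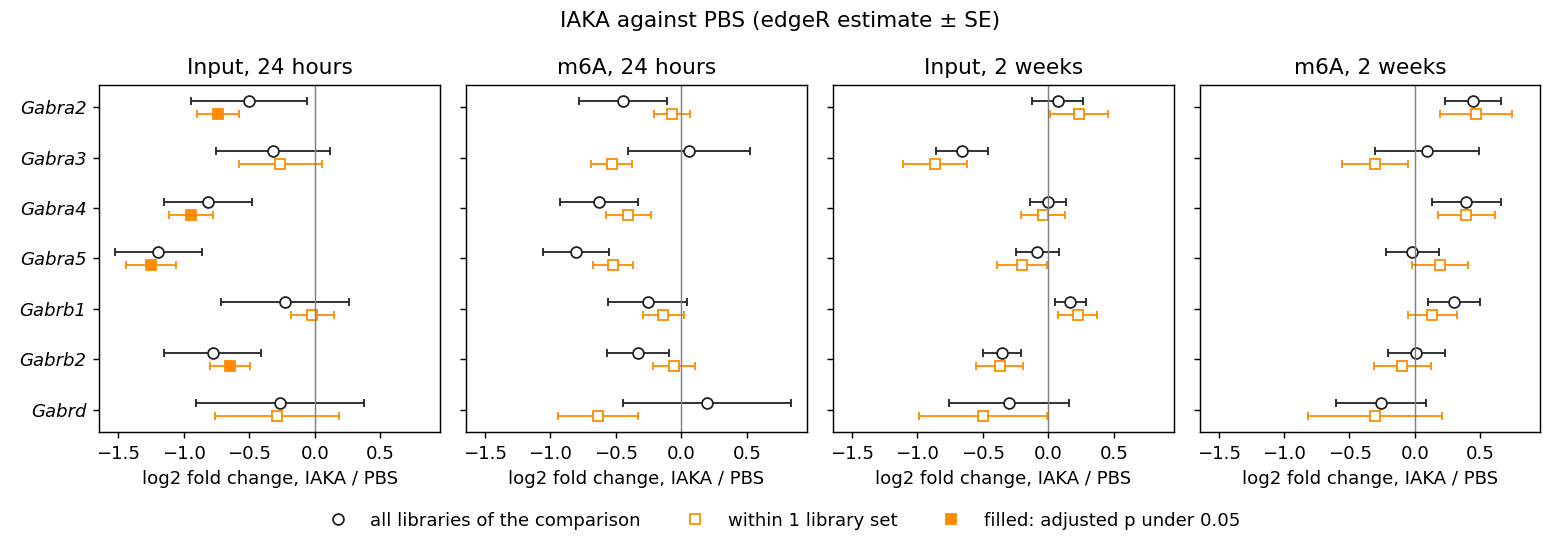
log2 fold change of IAKA against PBS for each subunit transcript with its standard error (edgeR), in the inputs and the m6A libraries at 24 hours and 2 weeks; circles use all libraries of the comparison, squares those of 1 library set, and filled symbols have an adjusted p under 0.05. Only Gabra2, Gabra4, Gabra5 and Gabrb2 in the 24-hour inputs within 1 set are filled, from -0.65 to -1.25.

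The difference between the IAKA effects of both time points was tested directly in the 19 m6A libraries. It was 1.03 ± 0.40 for Gabra4, 0.89 ± 0.38 for Gabra2 and 0.79 ± 0.31 for Gabra5 on the log2 scale, with a positive value where the effect at 2 weeks was above that at 24 hours. The unadjusted p was 0.019, 0.028 and 0.020. None of these passed the adjustment over 17440 genes (edgeR, adjusted p = 1.00 each), and 0.00573% of genes did, while 3 of 7 members and 2.45% of genes had an unadjusted p under 0.05. DESeq2 and voom called 0 members. With the library set as a block, the values were 0.89, 0.83 and 0.80.

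In 13 mice with both libraries deep enough, 9 IAKA and 4 PBS, the m6A library was compared with the input of the same mouse. Gabra5 was higher in the m6A library and Gabrd lower, both by small amounts, while 11% of 20567 genes were higher and 8.83% lower, 19.9% in all. At an unadjusted p under 0.05 stood 3 members, Gabra2 being the other, and 32% of genes. No member was above its input in all 13 mice or below it in all 13, against 2.81% and 1.83% of 14338 genes with counts in every library. An m6A library differs from its input by the antibody and, by the labels, by the kind of RNA taken and the amount used for the library, so these cannot be told apart.

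Gabra5 was above its input in 12 of the 13 mice, with a median log2 ratio of TMM-scaled CPM of 0.24 and a range of -0.15 (PBS mouse 4) to 0.63 (IAKA mouse 9). The fitted value was 0.22 ± 0.07 (edgeR with the mouse as a block, adjusted p = 0.031), a fold of 1.17. The call was lost without mouse 2, 3, 8 or 9, where the adjusted p ran up to 0.080.

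Gabrd, the subunit of receptors outside synapses of granule cells, was below its input in 10 of the 13 mice, with a median log2 ratio of -0.67. The 3 exceptions were PBS mouse 3 (0.35) and IAKA mice 42 (0.26) and 98 (0.59). The fitted value was -0.51 ± 0.16 (edgeR, adjusted p = 0.024), and the call was lost without mouse 2, 5 or 9, with an adjusted p of up to 0.055. Its inputs held 5 to 84 counts of Gabrd, so counting error is large in each ratio.

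Gabra2 ranged most widely, from -0.58 to 1.34, and was above its input in 9 of 13 mice (fitted 0.37 ± 0.15, edgeR adjusted p = 0.099). Its 6 IAKA mice at 2 weeks held a median of 0.89 and its 3 IAKA mice at 24 hours a median of -0.35. Without mouse 67 it passed (0.45, adjusted p = 0.037), and without both mice whose m6A library held under 2000000 counts it was 0.52 (adjusted p = 0.015), with Gabra5 then at an adjusted p of 0.051.

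Gabra4 (0.18 ± 0.10), Gabra3 (-0.14 ± 0.10), Gabrb1 (-0.15 ± 0.09) and Gabrb2 (-0.04 ± 0.08) did not pass. Gabrb1 was below its input in all 3 IAKA mice at 24 hours (-0.64, -0.45 and -0.40). Scaling mattered for the direction: by library size alone the median of all genes moved from -0.03 to 0.16, and Gabra3 (0.07), Gabrb1 (0.06) and Gabrb2 (0.17) turned positive, Gabra2 (0.57), Gabra4 (0.38) and Gabra5 (0.43) passed, and Gabrd (-0.32, adjusted p = 0.18) did not.

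**Figure D4:**
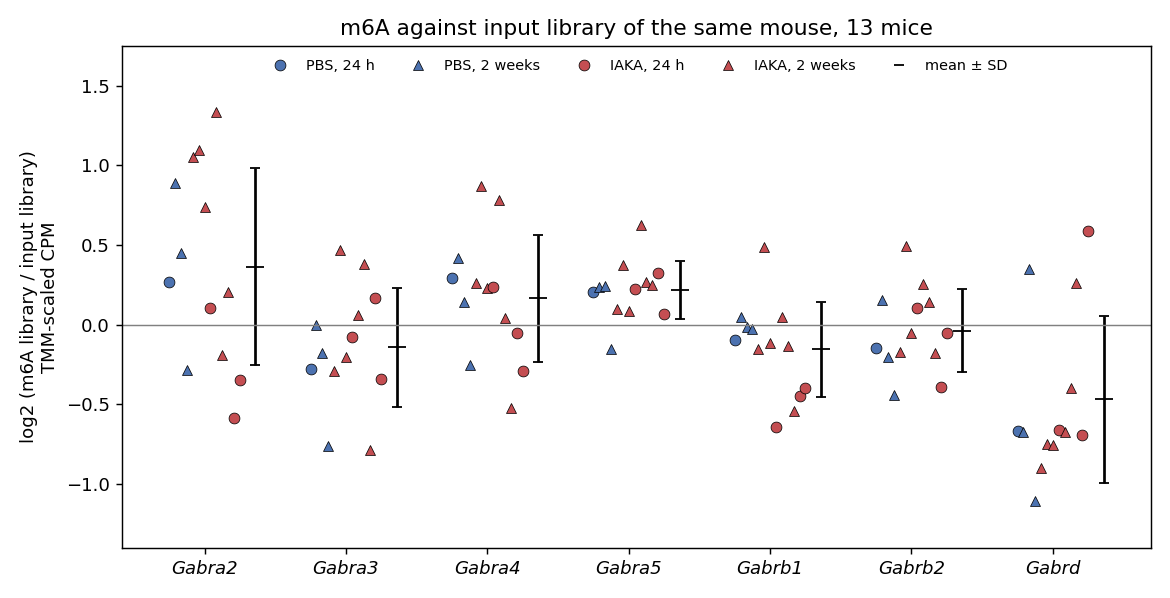
log2 ratio of the m6A library over the input library of the same mouse for each subunit transcript (TMM-scaled CPM) in 13 mice; colour gives the treatment, the symbol the time point, and the bar the mean and SD over all mice. Gabra5 lies above 0 in 12 of 13 mice, and Gabrd below 0 in 10 of 13.

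Between treatments, the ratio of m6A over input at 2 weeks (6 IAKA and 3 PBS mice) did not pass the test for any member. The interaction was 0.35 ± 0.35 for Gabra2, 0.25 ± 0.28 for Gabra3, 0.24 ± 0.21 for Gabrb2, 0.17 ± 0.29 for Gabra4, 0.17 ± 0.19 for Gabra5, -0.07 ± 0.22 for Gabrb1 and -0.03 ± 0.38 for Gabrd on the log2 scale. In edgeR 0 of the 7 members and 0.00636% of 15722 genes passed, and 0 members and 4.27% of genes had an unadjusted p under 0.05. DESeq2 and voom also called 0 members. With 1 PBS mouse at 24 hours, this comparison was made at 2 weeks only.

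Among PBS mice alone, 3 of the 7 members differed between the m6A libraries of set 5 and set 4. This comparison was chosen after the values had been seen, and it was fitted with the time point as a covariate, 4 mice a set. Gabra3 held 20.7 to 28.1 CPM in set 4 and 51.5 to 91.0 CPM in set 5, with no overlap (log2 difference 1.48 ± 0.22, edgeR adjusted p = 0.0012). Gabrb1 (0.53 ± 0.12, adjusted p = 0.0098) and Gabra4 (0.51 ± 0.15, 0.024) were also higher in set 5.

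These 3 of 7 members passed, and 36.2% of 16182 genes did. They were also the members whose sets did not overlap, as was the case, with set 5 higher, for 20% of genes (20.2% with set 5 lower). At an unadjusted p under 0.05 stood 4 members, Gabrb2 with the others, and 45.9% of genes. Gabra5 did not differ beyond its error, with 110.2 to 148 CPM in set 4 and 89.2 to 154 CPM in set 5 (log2 difference -0.09 ± 0.16, edgeR adjusted p = 0.70). Leaving out PBS mouse 1 or 50 left Gabra3 as the 1 member past the threshold, leaving out mouse 2, 71 or 78 left Gabra3 and Gabrb1, and leaving out mouse 4 gave 5 members.

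The other subunit genes were counted beside the members. Of a list of 12 other GABA-A and GABA-rho subunit genes, 12 could be tested in the inputs at 24 hours and 6 in those at 2 weeks. In the m6A libraries 7 could be tested at each time, for m6A over input 12, and for the IAKA effect on it 8. Of these, 0 passed in the comparisons of IAKA with PBS that used all libraries. In the 24-hour inputs without mouse 8, with 1 PBS library, 7 of the list could be tested. Their median log2 fold change was -0.40, beside -0.65 for the members and 0.01 for all genes, so lower values there were not confined to the members. Gabrg3, a gamma subunit, stood at -0.45 ± 0.16 in the 2-week inputs on the log2 scale (edgeR, adjusted p = 0.28). In PBS mice Gabrg1 was higher in m6A set 5 than in set 4 by 1.45 ± 0.19 (edgeR, adjusted p = 0.00078) and Gabrg3 by 0.68 ± 0.19 (adjusted p = 0.022).

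Of 21 genes for anchoring and trafficking of the receptor, 0 passed in the comparisons of IAKA with PBS over all libraries. The fit of the 24-hour inputs without mouse 8 has 1 PBS library. There the log2 values were 1.196 ± 0.16 for Iqsec3, 0.67 ± 0.16 for Trak1 and 0.66 ± 0.18 for Nlgn2. Gabarapl1, which belongs to the family of receptor-associated proteins that act in vesicle traffic, stood at -0.75 ± 0.17. The median log2 fold change of the 21 genes was -0.03, beside 0.01 for all genes. In m6A over input, 4 of the 21 were higher and 2 lower, beside 11% of all genes higher and 8.83% lower. Clptm1, which limits the forward transport of the receptor, was lowest (-0.56 ± 0.10), and Plcl2 (0.40 ± 0.09), Slitrk3 (0.41 ± 0.10) and Rdx, or radixin, which anchors alpha-5 receptors outside synapses (0.42 ± 0.11), were higher. Between PBS sets, 4 of the 21 anchoring genes were higher and 7 lower in set 5, beside 18% and 18.3% of all genes, with Nlgn2 at -1.48 ± 0.12.

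Across the 19 m6A libraries, each member was matched to the gene outside the group whose centred log2 CPM profile was nearest. The root mean square distance in log2 was 0.14 between Gabrb2 and Akap11, 0.16 between Gabrb1 and Celf2, 0.18 between Gabra5 and Grm5, 0.18 between Gabra2 and Zfp932, 0.19 between Gabra3 and Cacnb4 and 0.22 between Gabra4 and Gm4631. Gabrd was the farthest from its nearest gene, Tbr1, at 0.40, and held 5 to 145 counts in these libraries. The median distance to all genes ran from 0.66 (Gabrb2) to 0.96 (Gabra3). A nearest gene lies below that median by construction, so this does not measure how close a match is. These profiles share libraries, depth and library sets.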

How the data were processed

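Total RNA and m6A-immunoprecipitated RNA of mouse hippocampus were sequenced by the authors from SMARTer Stranded Total RNA libraries. The deposited values are raw counts per gene symbol in each of 4 lanes, made by the authors; per the labels the build was mm10. Aligner, counter and strand setting: not given in the sources used here. Lanes were summed to 35 libraries (140 columns). A further 8 columns, named as inputs of 2 mice without a labelled input, were not used. Groups came from the labels. For 27 libraries the assay was inferred from column names.

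Comparisons used edgeR 4.0.16 (TMM, filterByExpr, robust quasi-likelihood test, Benjamini-Hochberg over all genes, threshold 0.05) in R 4.3.3 with the groups compared, on libraries of 100000 or more counts. SE is the absolute log2 fold change over the square root of F. CPM is counts per 1000000 of the library total. p-values measure the spread between mice. For m6A over input this is the spread, from mouse to mouse, of the ratio within a mouse. In the 24-hour inputs the PBS group is 1 library, so only the IAKA mice give a spread. m6A over input used the mouse as a block, since the labels give 1 animal for both libraries. In 12 mice the correlation of deviations ran from 0.02 to 0.84, with 11 above 0.1.

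Alternatives were DESeq2 1.42.0, voom with quality weights (limma 3.58.1), library-size scaling, a mean count of at least 10, no filter, library sets, depth, and each library left out. The fits within 1 set, set as a block for inputs, and removal of shallow m6A libraries were chosen after seeing the data. Scripts were tested on simulated data. The members and gene lists were chosen with earlier results of these data known. Beside the members, named genes are up to 4 per subunit or anchoring list and comparison that passed with the smallest p, and the nearest profile of each member; other genes named were chosen after their values were seen. Results of some other subunit genes are not reported here. Tables and figures used Python 3.11.15, pandas 2.3.3, numpy 2.4.6 and matplotlib 3.10.9. A gene with no count in a library could still have up to 3 counts of its total, and such intervals cover counting error only.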

Additional observations from a re-analysis of the deposited data

Results flagged for a closer look

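A library far from the others of its group was sought in 28 checks, each of 1 member in 1 group of 5 or 6 libraries. Dixon's test at the 95% level was used, which flags about 1 in 20 by chance, and 2 checks stood out. Checks of different members share the same libraries and are not independent. The input of IAKA mouse 42 at 2 weeks held 49.3 CPM of Gabra5, against 76.8 to 89.6 CPM in the other 5 mice. The m6A library of IAKA mouse 98 at 24 hours held 12.7 CPM of Gabrd, against 2.08 to 2.75 CPM in the other 4 mice.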

How the results depend on the processing

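The count of members past the threshold did not change from 0 under any alternative run for the m6A and input libraries at 2 weeks, the IAKA effect on m6A over input and the change with time. In the m6A libraries at 24 hours it was 1 with voom, and 0 with any 1 library left out. In the inputs at 24 hours it rose above 0 with voom and with the set as a block. It also did so within the inputs with no prefix and with IAKA mouse 8 left out. That mouse holds the only deeper 24-hour input outside the inputs with no prefix. The block, the inputs with no prefix and the fit without mouse 8 therefore take the treatment effect from the same libraries. They do not count as separate results. PBS mouse 1 could not be left out, as no PBS library would remain. For m6A over input (2 members) the count of members was 1 with no filter, 4 with voom, 0 in the mice of set 3 and 1 in those of set 5. It was 0 in PBS mice and 0 in IAKA mice, which hold fewer libraries, and 0 to 3 with a mouse left out.

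Without the replicate block that pairs both libraries of a mouse, 0 members passed (Gabra5 0.23, adjusted p = 0.22; Gabrd -0.51, adjusted p = 0.31, edgeR), and 1937 genes against 4087 with it. For the IAKA effect on m6A over input, Gabrd turned to 0.029 without the block. No paired analysis was possible for IAKA against PBS because each mouse had 1 treatment.

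Signs turned as follows, on the log2 scale. In the m6A libraries only set 4 at 24 hours and only set 5 at 2 weeks held both treatments. The set as a block and the fit within that set therefore take the treatment effect from the same mice. At 24 hours in the m6A libraries, Gabra3 was -0.086 with no filter, -0.23 with voom, -0.53 with the set as a block, -0.53 within set 4 and -0.42 without libraries under 2000000 counts. Gabrb2 was 0.016 with voom, and Gabrd -0.48, -0.65, -0.64 and -0.53 with voom, block, set 4 and depth. At 2 weeks, Gabra3 was -0.0018 by library size, -0.071 with voom, -0.32 with the block and -0.30 within set 5, Gabra5 was 0.17 and 0.19 with the block and set 5, and Gabrb2 -0.085, -0.0065, -0.17, -0.11 and -0.096 by library size, no filter, voom, block and set 5. In inputs at 24 hours with the shallow libraries, Gabra2 was 0.031, Gabra3 0.17 and Gabrb1 0.17. In inputs at 2 weeks, Gabra2 was -0.095 with voom, and Gabra4 -0.00092 (DESeq2), -0.022 (library size), -0.00033 (mean count), -0.072 (voom), -0.044 (block), -0.010 (all inputs in 1 fit) and -0.041 (no prefix). For m6A over input by library size, Gabra3 was 0.066, Gabrb1 0.056 and Gabrb2 0.17, and Gabrb2 was 0.00076 with no filter, 0.012 in IAKA mice and 0.0040 without shallow mice. The IAKA effect on it with voom was -0.0073 for Gabra3 and -0.00083 for Gabra5. For the change with time, Gabra3 was -0.051 by library size, Gabrb2 -0.17 with voom and Gabrd 0.27 without shallow libraries. The cause was not tested.

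With a library left out, signs turned over these ranges: at 24 hours in m6A, Gabra3 -0.20 to 0.50 and Gabrd -0.57 to 0.37; at 2 weeks, Gabra3 -0.12 to 0.39, Gabra5 -0.11 to 0.086 and Gabrb2 -0.14 to 0.12; in inputs at 2 weeks, Gabra2 -0.095 to 0.13, Gabra4 -0.069 to 0.094 and Gabra5 -0.16 to 0.0084. For m6A over input Gabrb2 ran from -0.080 to 0.00077, and for the IAKA effect on it Gabrb1 from -0.19 to 0.024 and Gabrd from -0.30 to 0.29. For the change with time Gabra3 ran from -0.42 to 0.38 and Gabrd from -0.60 to 0.31, and between PBS sets Gabrd from -0.020 to 0.22.

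Over all genes, the count past the threshold ranged over the alternatives from 0 to 1120 in m6A at 24 hours (main 1), 0 to 15 at 2 weeks (0), 0 to 2783 in inputs at 24 hours (0), 0 to 342 at 2 weeks (0), 187 to 8067 for m6A over input (4087, or 2271 higher and 1816 lower; by library size 4762 and 468), 0 to 3 for its IAKA effect (1), 1 to 62 for the change with time (1) and 3621 to 8777 between PBS sets (5864). Depth limits Gabrd most, with 5 to 145 counts a library, and the single PBS input at 24 hours leaves its group's spread unmeasured.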
